A study of Mus musculus with 12 samples.

Results

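The variable (V) segments of the T cell receptor (TCR) were described in regulatory T cells (Treg) labelled as coming from spleen. All rows of the deposited expression table were taken whose gene name begins with TR or TCR, the letter of a chain and V. This gave 113 of 36222 rows, of which 79 belonged to the alpha chain, 23 to beta, 6 to gamma and 5 to delta. Sorted CD4+ YFP+ Treg from individual B6 mice formed 4 groups of 3 libraries each. WT mice carried Foxp3-YFP-Cre alone, and cKO mice carried the same driver together with floxed Ikzf1 alleles, so that Cre was made in Foxp3-expressing cells of both genotypes and Ikzf1, which encodes Ikaros, could be deleted only in cKO. Treg of each genotype were taken either directly ex vivo (unstimulated) or after 4 h on plate-bound anti-CD3 and anti-CD28, at 1 µg/ml each. The mice were young adults of matched age, per the study.

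A TCR chain is made in the thymus by joining a V segment to a joining segment, with a diversity segment between them in the beta and delta chains, and splicing the product to a constant segment. Recombination signal sequences beside each segment, consisting of a heptamer, a spacer and a nonamer, are cut by the RAG1 and RAG2 proteins. The V segment carries the first part of the antigen-binding face of the receptor. A cell uses few V segments, so a population of Treg spreads its TCR transcripts over many of them, and the level of a segment in bulk RNA follows both how many cells use it and how much TCR RNA each of them holds, which cannot be told apart here. Alpha-beta receptors are carried by CD4+ and CD8+ T cells, and gamma-delta receptors by a separate T cell lineage. Some alpha V segments, named with dv, can be joined to delta as well.

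On mouse build mm9 the alpha members lay at chr14:53047603-54496426, all on the plus strand, and the beta members at chr6:40841295-41508370, with Trbv31 alone on the minus strand. The delta members lay at chr14:54501207-54768876 and the gamma members at chr13:19269911-19428895. The annotation gave 109 members the biotype of a V gene, 2 that of a pseudogene and 2 that of a protein-coding gene. A recombination signal was searched for within 10 bases of each gene's end, as CAC followed by the rest of a heptamer matching CACAGTG at 5 or more of 7 bases, a spacer of 22 to 24 bases and a nonamer matching ACAAAAACC at 5 or more of 9 bases, in the direction of transcription and with no overlap between the parts. Such a run was found beside 103 of the 113 members (91.15%). Of 4589 other genes of chromosomes 6, 13 and 14, without any other annotated antigen receptor segment, 122 had one (2.66%). The run was found beside 72 of 79 alpha, 23 of 23 beta, 3 of 6 gamma and 5 of 5 delta members. The exact heptamer stood beside 69 members (61.06%) against 10 of the other genes (0.22%). The runs of the beta segment with the highest level, of several segments that led the comparisons and of both beta segments that were nearly silent are shown 5′ to 3′ on the gene's own strand, with the heptamer and the nonamer in capitals.
Trbv13-2, chr6:41071832-41071870: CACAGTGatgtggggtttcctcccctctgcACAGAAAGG
Trbv3, chr6:40998824-40998862: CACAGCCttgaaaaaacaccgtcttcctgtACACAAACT
Trbv4, chr6:41009886-41009924: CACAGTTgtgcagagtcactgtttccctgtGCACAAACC
Trbv31, chr6:41507653-41507691: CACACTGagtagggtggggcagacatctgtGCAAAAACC
Trav21-dv12, chr14:54496428-54496465: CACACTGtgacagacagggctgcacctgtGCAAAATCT
Trbv10, chr6:41042228-41042266: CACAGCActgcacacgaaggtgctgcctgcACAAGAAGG
Trbv21, chr6:41153044-41153081: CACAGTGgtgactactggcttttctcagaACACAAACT
Both of the last lines came from segments listed near 0, so a run of these letters stood beside segments of high and of low level alike.

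A second feature of sequence limited most alpha values. A stretch of the mouse alpha locus is present in several copies, and the copies of a V segment carry the suffix d or n. Reads that fit several places were not counted by the authors' program, so a segment with an identical copy can be listed near 0 whatever its use. All 23 beta members were fully unique in 51-base stretches, the length of the reads, whereas the median alpha member was unique over 47.1% of its exonic stretches, 8 alpha members were fully unique and 14 had no unique stretch at all. Trav11, the segment of the invariant chain of natural killer T cells, and its copy Trav11d had 0 mismatches over the 291 bases compared, and their last 60 bases are shown because they carry this limit.
Trav11, chr14:54139475-54139534, plus strand: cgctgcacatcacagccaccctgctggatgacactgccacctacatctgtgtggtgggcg
Trav11d, chr14:53444529-53444588, plus strand: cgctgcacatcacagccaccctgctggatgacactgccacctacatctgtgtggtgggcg
Neither had more than 1 read in any library, which says nothing of the use of either. The median level was 0.04 for the 14 alpha members with no unique stretch, of which 12 had 3 reads or fewer in every library, 4.67 for the 27 with up to 50%, 5.19 for the 30 above that, and 5.4 for the 8 fully unique members. Across the 79 alpha members, level and unique share had a Spearman's rho of 0.51, a description over segments that share their libraries. Levels are given here in TPM (transcripts relative to all transcripts of a library), which are per length, rescaled between libraries as described for the processing.

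Beta V segments were the most abundant members and gamma and delta segments the least. The summed level per library in ex vivo WT Treg was 1467, 1274 and 1782 TPM for beta, and 435, 383 and 508 TPM for alpha. Gamma and delta V segments summed to 7.31 ± 1.21 and 10.4 ± 5.49 TPM in the same libraries (SD, n = 3). The alpha sum leaves out the reads of copies described above, so the gap between alpha and beta, with a ratio of 3.33 to 3.51 in ex vivo WT Treg, is not a ratio of chains. The median member reached 39.5 TPM in beta, 4.45 in alpha, 1.83 in gamma and 0.494 in delta, over all 12 libraries. The number of reads behind a sum was 898 to 7649 per library for beta, 548 to 2439 for alpha, 15 to 54 for gamma and 3 to 68 for delta.

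As a measure of what is read from genes that T cells do not use, 1555 olfactory and vomeronasal receptor genes were summarised in each group. Their median was 0.742 TPM in WT and 0.761 in cKO Treg before stimulation, then 0.883 in WT and 1.19 in cKO Treg after it, and their 95th percentile was 1.69, 1.59, 1.85 and 2.32 TPM in that order. Of the V segments, 44 alpha, 21 beta, 1 gamma and 0 delta members stood above this percentile in all 4 groups. A further 16 alpha, 3 gamma and 2 delta members did so in some groups, and 19 alpha, 2 beta, 2 gamma and 3 delta members in none. Both beta members in none were Trbv10, with 0 to 4 reads per library, and Trbv21, with 0 to 8.

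The order of the beta segments was led by Trbv13-2, which encodes a chain of the Vbeta8 family (chr6:41071416-41071831). Its level was 173, 149 and 217 TPM in WT and 184, 150 and 161 in cKO Treg before stimulation, then 102, 109 and 116 in WT and 67.5, 78.3 and 78.4 in cKO Treg after it. Each stimulated library was below every ex vivo library, and the cKO stimulated libraries were the lowest. Trbv12-2 came next, at 116, 89.1 and 145 TPM in WT and 146, 108 and 134 in cKO Treg before stimulation, then 67.5, 65.2 and 64.7 in WT and 41.4, 42.5 and 49.8 in cKO Treg after it. The same ordering of the conditions was seen, without overlap between ex vivo and stimulated libraries. Trbv5 reached 110, 90.9 and 141 TPM, Trbv16 122, 86.7 and 133 TPM, Trbv15 99.0, 91.2 and 131 TPM, and Trbv3 101, 103 and 127 TPM in WT ex vivo Treg. These 4 neighbours overlapped in their libraries, so their order among themselves is within the spread.

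**Figure D1:**
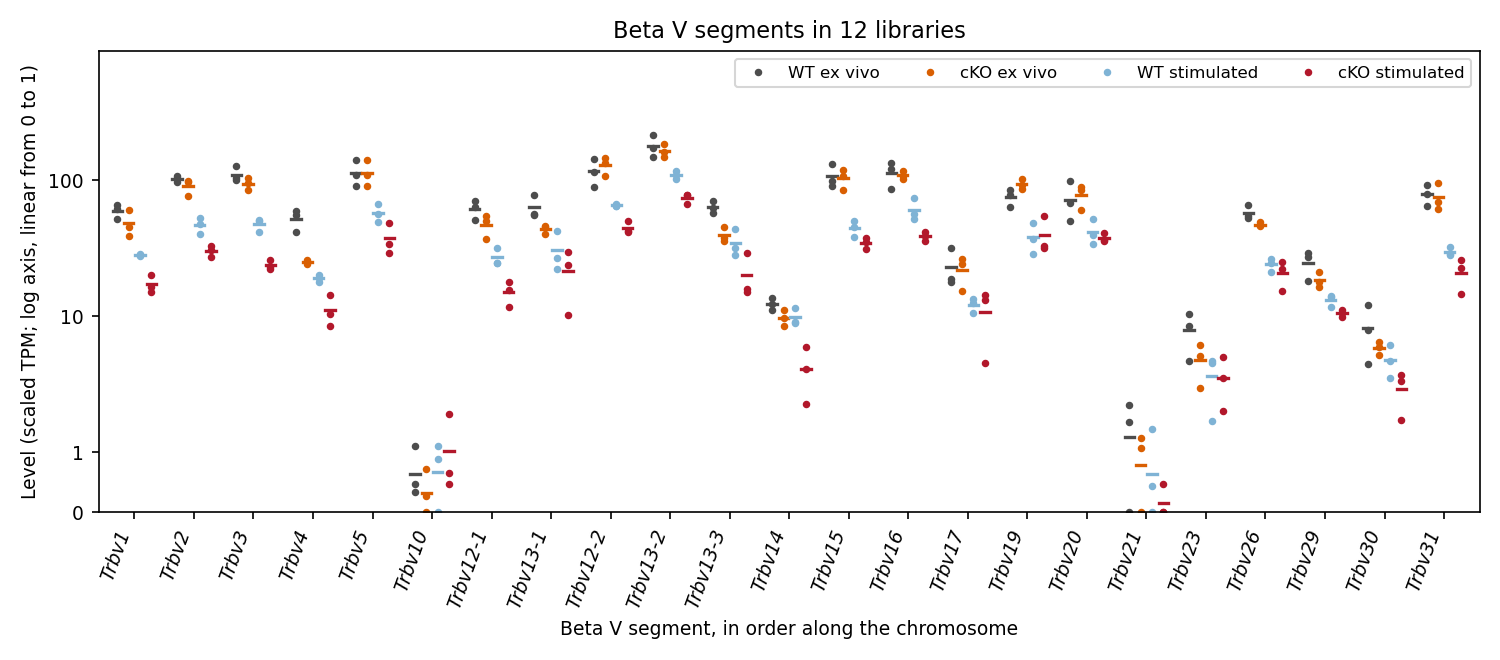
Level of each of the 23 beta V segments in every library, in scaled TPM on a log axis that is linear from 0 to 1, in order along the chromosome, with a dash at each group mean of 3 libraries. Trbv13-2 is the highest at 149 to 217 TPM in WT ex vivo Treg, and Trbv10 and Trbv21 lie near 0 in all groups.

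The most abundant alpha segments were far lower. Trav14-1 (chr14:54173732-54174226) was at 28.8, 16.6 and 38.5 TPM in WT and 20.7, 31.7 and 23.6 in cKO Treg before stimulation, then 8.29, 13.2 and 10.9 in WT and 7, 8.7 and 10.7 in cKO Treg after it. Its ex vivo libraries all exceeded its stimulated libraries. Trav14-2 followed with 16.8 to 22.8 TPM in WT ex vivo Treg and 5.56 to 13.3 TPM in WT stimulated Treg. Trav14n-3, the n copy of the same family, was at 16 to 18.7 TPM in WT ex vivo and 11.4 to 16.1 TPM in WT stimulated Treg, where the highest stimulated library passed the lowest ex vivo library. Trav14d-3-dv8, which can also join delta, was at 13.1 to 23.4 TPM in WT ex vivo Treg, and Trav13-1 at 7.42 to 20.6 TPM. The WT ex vivo ranges of Trav14-1, Trav14-2, Trav14n-3, Trav14d-3-dv8 and Trav13-1 overlapped.

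Of the gamma segments, Tcrg-V7 had the highest mean, at 0.554, 2.69 and 2.05 TPM in WT and 2.09, 1.76 and 2.23 in cKO Treg before stimulation, then 2.94, 3.99 and 1.67 in WT and 1.98, 4.25 and 2.73 in cKO Treg after it. It rested on 2 to 13 reads per library and its groups overlapped. Tcrg-V4 had 2 to 18 reads and Trgv2 1 to 15 reads per library. The delta member Trdv1 (chr14:54501207-54501891) was at 5.6, 2.59 and 6.34 TPM in WT and 5.28, 2.72 and 6.57 in cKO Treg before stimulation, then 2.17, 2.06 and 2.10 in WT and 0, 1.95 and 0.459 in cKO Treg after it. Its stimulated libraries were all below its ex vivo libraries, on 0 to 35 reads. Trdv2-2 had 0 to 28 reads and Trdv5 0 to 6 reads per library. Of the genes listed as marking gamma-delta T cells, 3 of 10 were in the table, with group means of 2.02 to 4.04 TPM for Sox13, 3.23 to 6.15 for Cd163l1 and 1.95 to 3.28 for Blk. Their summed level was 5.88 to 8.98 TPM in WT and 6.45 to 11.7 in cKO Treg before stimulation, then 8.81 to 9.69 in WT and 10.8 to 16.2 in cKO Treg after it, and its part in the gamma and delta values was not tested.

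**Figure D2:**
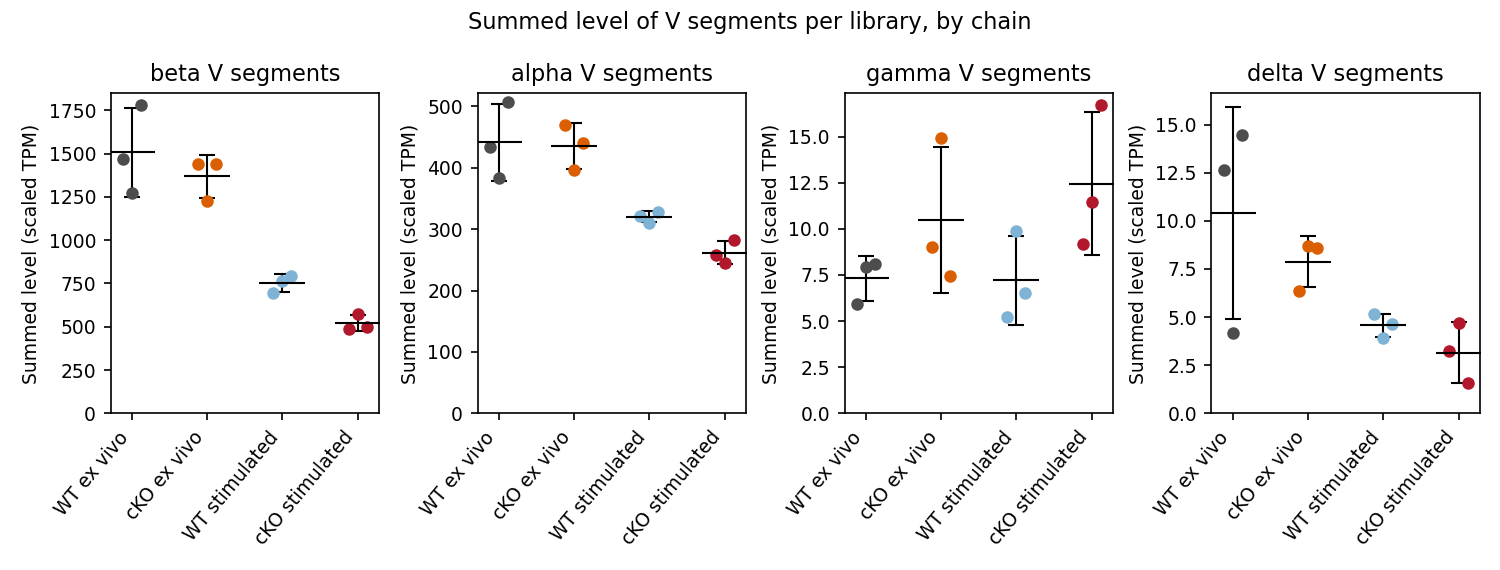
Summed level of the V segments of each chain in scaled TPM, with a point for each of 12 libraries, a dash at the group mean and bars of 1 SD (n = 3), on an axis of its own for each chain. Beta runs from 1508 TPM on average in WT ex vivo to 521 in cKO stimulated Treg, and alpha from 442 to 262, while gamma and delta stay under 17 TPM in every library.

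V segments varied more between libraries of a group than most genes did. The pooled SD within groups on the log2(TPM + 1) scale had a median of 0.427 over the 68 members whose TPM as deposited reached the filter of 5 in at least 1 group mean, against 0.173 over all 13318 such genes. These 68 were 46 alpha, 21 beta and 1 delta member, and 33 alpha, 2 beta, 6 gamma and 4 delta members were under the filter. Of those tested, 18 beta and 14 alpha members reached it in all 4 groups, while 12 alpha members, 1 beta member and Trdv1 reached it ex vivo only and 6 alpha members after stimulation only. The median SD was 0.485 for alpha and 0.261 for beta, and no set of genes of like level was compared. Among beta segments the SD ran from 0.153 for Trbv3 to 0.519 for Trbv23. Of the segments with a mean of at least 20 TPM, Trbv13-1 had the largest SD, 0.47. Its libraries in cKO stimulated Treg were at 29.9, 23.9 and 10.3 TPM, and in WT stimulated Treg at 22.4, 42.8 and 27 TPM, so single libraries of a group lay far apart. Trbv20 (SD 0.32), Trbv13-3 (0.32) and Trbv19 (0.31) came next.

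The share of the summed beta level that a segment took, its usage, was alike between mice of a group. Between pairs of libraries of the same group, the usage of the 23 beta segments had a Pearson's r of 0.928 to 0.99 (12 pairs, median 0.963), and that of the 79 alpha segments 0.612 to 0.904 (median 0.812). Between libraries of different groups the range was 0.859 to 0.975 for beta and 0.563 to 0.895 for alpha. These are descriptions across segments, which share their libraries. Counting reads alone would give a chi-square per degree of freedom of 1 within a group, and the usage gave 2.43, 4.41, 2.55 and 2.36 for beta and 2.91, 3.45, 1.77 and 2.31 for alpha, in the order WT and cKO before and then WT and cKO after stimulation. The reads carry no molecular identifiers, and the part of amplification in these values was not tested. The effective number of segments was 16 to 17.4 for beta and 46.3 to 52.7 for alpha, and the 6 beta segments most used in a library held 49.1 to 54.9% of its beta sum.

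Single beta segments kept or changed their share as follows. Trbv13-2 took 11.8, 11.7 and 12.2% of the beta sum in WT and 12.8, 12.2 and 11.2% in cKO Treg before stimulation, then 14.7, 14.3 and 14.6% in WT and 13.8, 13.6 and 15.7% in cKO Treg after it. Its stimulated shares were all above its ex vivo shares. Trbv4 took 3.79, 3.27 and 3.35% in WT ex vivo and 1.68, 2.06 and 1.79% in cKO ex vivo Treg, without overlap, and 2.74, 2.65 and 2.24% in WT stimulated and 2.93, 1.80 and 1.69% in cKO stimulated Treg, with overlap. Trbv19 went the other way between the genotypes ex vivo, with 5.36, 4.99 and 4.80% in WT and 7.06, 7.04 and 6.48% in cKO Treg. Trbv3 took 6.88, 8.10 and 7.13% in WT and 6.62, 6.92 and 7.23% in cKO Treg before stimulation, then 5.99, 6.71 and 6.34% in WT and 4.75, 3.87 and 5.17% in cKO Treg after it, where the cKO stimulated libraries were below all others. No test was made of shares, since the share of a segment moves with that of every other.

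**Figure D3:**
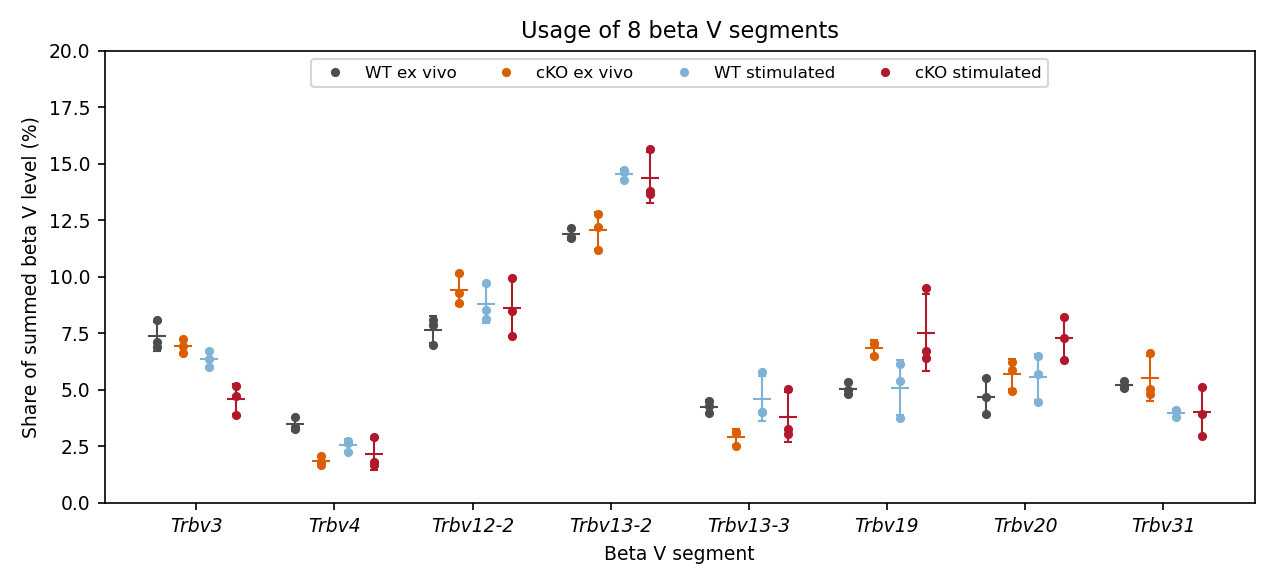
Share of the summed beta V level, in percent, taken by 8 beta segments in each library (points), with the group mean and 1 SD (n = 3). Trbv4 is at 3.27 to 3.79% in WT ex vivo and 1.68 to 2.06% in cKO ex vivo Treg, and Trbv3 is lowest in cKO stimulated Treg at 3.87 to 5.17%.

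The first comparison asked how loss of Ikaros bore on V segments in resting Treg. Ikzf1 itself was at 113.5, 103.6 and 113.0 TPM in WT ex vivo and 42.1, 33.0 and 38.4 TPM in cKO ex vivo Treg, a change of -1.52 on the log2 scale (limma adjusted p = 5.45e-05). Of the 68 members tested, 1 was lower in cKO Treg and 0 were higher at an adjusted p under 0.05, beside 5.29% of all genes called in either direction, 1.67% lower and 3.62% higher, and 7 members had an unadjusted p under 0.05, beside 17.9% of all genes. The segment that fell was Trbv4 (chr6:41009442-41009880), at 55.5, 41.7 and 59.6 TPM in WT and 24.2, 25.2 and 25.8 TPM in cKO Treg. Every cKO library was below every WT library, and the change was -1.02 (SE 0.17, limma adjusted p = 0.00637). The call was lost when the filter was set to 1 TPM (adjusted p = 0.232) or removed (0.26), and on TPM as deposited (0.181). Trbv19 was at 78.5, 63.5 and 85.6 TPM in WT and 102, 86.3 and 93.2 TPM in cKO Treg, without overlap, but its change of 0.31 did not pass (adjusted p = 0.547). The median change was -0.09 over the 46 alpha and -0.22 over the 21 beta segments, against -0.01 over all genes tested. Of the 46 alpha segments, 8 had reached the filter in WT groups only. The cKO libraries were all below the WT libraries for 4 alpha and 5 beta segments, beside 9.96% of all genes, and all above them for 1 alpha and 1 beta segment, beside 11.6%. The summed level in cKO ex vivo Treg was 1442, 1226 and 1438 TPM for beta and 469, 396 and 441 TPM for alpha, overlapping the WT sums, with log2 ratios of -0.14 and -0.02 that both turned positive on TPM as deposited.

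After stimulation, 7 of 21 beta V segments tested were lower in cKO than in WT Treg, and this count depended on single libraries. Ikzf1 was at 66.7, 71.1 and 68.9 TPM in WT and 30.0, 30.1 and 23.3 TPM in cKO stimulated Treg, a change of -1.29 (limma adjusted p = 0.000161). Of the 68 members, 8 fell and 0 rose, beside 6.93% of all genes called in either direction, 3.63% lower and 3.3% higher, and 20 members had an unadjusted p under 0.05, beside 23.8% of all genes. The calls were 7 beta segments and 1 alpha segment. The median change was -0.57 over beta, where 20 of 21 segments were below 0, and -0.28 over alpha, against -0.03 over all genes. For 13 beta and 8 alpha segments each cKO library was below every WT library, beside 18% of all genes. Of the 46 alpha segments tested, 8 had reached the filter in WT groups only, and 0 of the calls were among them. Their entry leaned towards lower values in cKO Treg, so the alpha median and count are no measure of all members.

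Trbv3 (chr6:40998393-40998823) was at 41.5, 51.4 and 50.4 TPM in WT stimulated and 23.2, 22.2 and 25.9 TPM in cKO stimulated Treg. The groups were well apart, by -0.97 (SE 0.12, limma adjusted p = 0.00105), and the call held under all 21 alternatives. Trbv14 fell by 1.14 (SE 0.23, adjusted p = 0.0131), from 9.11, 11.4 and 8.88 TPM to 4.10, 5.98 and 2.25 TPM. Trbv12-1, at 31.8, 24.8 and 24.5 TPM in WT and 15.7, 11.6 and 18.0 TPM in cKO Treg, fell by 0.81 (adjusted p = 0.0289). All 3 had no library in common between the genotypes. Trbv4 was lower by 0.76 again (adjusted p = 0.023), from 19, 20.3 and 17.8 TPM to 14.3, 10.4 and 8.45 TPM. Trbv1, Trbv2 and Trbv13-2 fell by 0.69, 0.61 and 0.54 (limma adjusted p = 0.0238, 0.0166 and 0.0383). Of 21 alternatives, 9, 8 and 11 lost the calls of Trbv1, Trbv2 and Trbv13-2, 8 each those of Trbv4 and Trbv12-1, and 4 that of Trbv14, with an adjusted p of up to 0.26. The alpha segment was Trav9-4 (chr14:54295816-54296304), at 11.1, 8.99 and 10.1 TPM in WT and 5.99, 4.46 and 1.94 TPM in cKO Treg, a change of -1.19 (SE 0.31, adjusted p = 0.0447) that was lost in 15 of 21 alternatives.

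The number of calls in this comparison rested on few libraries. It was 3, 1 and 2 without WT stimulated library 1, 2 and 3, 4 without cKO stimulated library 3, and reached 10 at most when another library was left out. With a filter of 1 TPM or none it was 1, on TPM as deposited 5 and by limma-voom on reads 2, and under quantile normalization it was 12. The summed level did not overlap between the genotypes. Beta was at 694, 765 and 794 TPM in WT and 489, 574 and 501 TPM in cKO stimulated Treg, a log2 ratio of -0.53, and alpha at 322, 311 and 328 against 258, 245 and 282 TPM, a ratio of -0.29. These ratios ran from -0.60 to -0.48 and from -0.35 to -0.25 with each library left out. On TPM as deposited they were -0.81 and -0.59, and over the constant segments of the chain 0.11 and 0.36, or 0.028 and 0.16 without cKO stimulated library 3.

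On stimulation for 4 h, 17 of 21 beta and 6 of 46 alpha segments tested fell in WT Treg, and 20 and 18 in cKO Treg. On TPM as deposited these were 8 beta and 4 alpha segments in WT and 20 and 26 in cKO Treg. In WT Treg, 23 of 68 members fell, which were 17 beta and 6 alpha segments, and 0 rose, beside 32.0% of all genes called in either direction, 19.3% lower and 12.7% higher. The median change was -0.97 for beta and -0.36 for alpha, against 0.00 for all genes tested. The beta changes lay between -1.4 and -0.31. Each stimulated library was below every ex vivo library for 18 of 21 beta segments, Trbv14, Trbv20 and Trbv30 being the others, and for 12 of 46 alpha segments, beside 26.3% of all genes. The count was 15, 14 and 12 with a filter of 1 TPM, with none and on TPM as deposited.

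Trav21-dv12, the alpha segment nearest to delta (chr14:54495659-54496426), had the largest fall called in WT Treg, from 7.57, 9.01 and 6.45 to 2.15, 2.09 and 1.08 TPM. The change was -1.66 (SE 0.42, limma adjusted p = 0.0112). Trbv4 fell by 1.4 (SE 0.17, adjusted p = 0.000124), from the ex vivo values given above. Trbv31, the only beta segment downstream of the constant segments, fell by 1.36 (SE 0.21, adjusted p = 0.000749), from 79.3, 64.5 and 92.3 to 28.1, 28.9 and 32.6 TPM. Trav14-1 fell by 1.24 (SE 0.28, adjusted p = 0.00636). None of these 4 had overlapping groups.

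In cKO Treg, 39 of 68 members fell and 0 rose, beside 43.8% of all genes called in either direction, 26.5% lower and 17.3% higher. These were 20 of 21 beta segments, 18 of 46 alpha segments and Trdv1. The median change was -1.17 for beta, -0.66 for alpha and -0.01 for all genes. Beta changes lay between -1.95 and -0.36, and Trbv23, at -0.36, was the beta segment not called. The stimulated libraries were all below the ex vivo libraries for 20 beta and 18 alpha segments and for Trdv1, beside 30.7% of all genes. They were all above them for 1 alpha segment, beside 22.8% of all genes. Of the members that fell, 6 alpha segments and Trdv1 had reached the filter ex vivo only, against 1 alpha segment in WT Treg, and their counts are no measure of all members. Of the 23 members called in WT Treg 22 were among the 39 called in cKO Treg, the other being Trav16.

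Trbv3 fell by 1.95 in cKO Treg (SE 0.12, limma adjusted p = 1.86e-06), from 95.4, 84.9 and 104 TPM to 23.2, 22.2 and 25.9 TPM. Trav9-4 fell by 2.05 (SE 0.31, adjusted p = 0.000461), from 21.9, 14.1 and 21.8 to 5.99, 4.46 and 1.94 TPM. Its upstream relative Trav9-2 fell by 2.04 (SE 0.44, adjusted p = 0.00402), from 14.6, 13.3 and 11.9 to 6.13, 2.78 and 0.562 TPM. All 3 were without overlap, and cKO stimulated library 3 was the lowest for both alpha segments. Trav12-3 fell by 1.84 (SE 0.34, adjusted p = 0.00174), from 9.99, 8.19 and 10.7 to 3.79, 2.76 and 0.434 TPM. Within cKO Treg, Trav9-4, Trav9-2 and Trav12-3 reached the filter ex vivo only, the higher arm of their falls. Trdv1 fell by 1.79 (SE 0.47, adjusted p = 0.0113), on 11 to 35 reads per ex vivo and 0 to 6 per stimulated library. It reached the filter only through its cKO ex vivo mean, the higher arm of this fall, and was not tested without cKO ex vivo library 3.

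**Figure D4:**
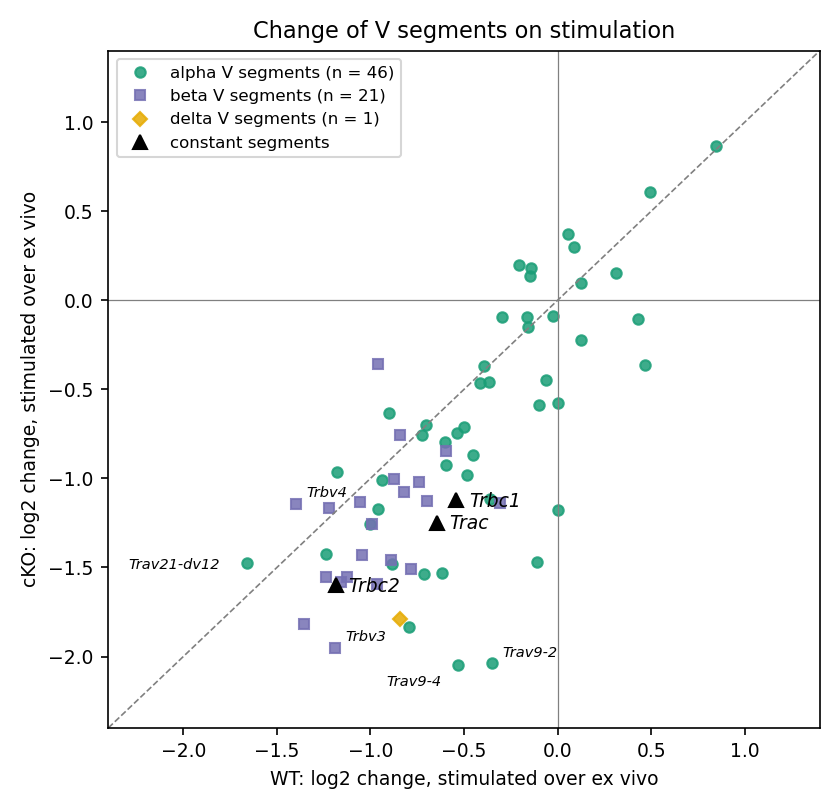
Change on stimulation in WT (x axis) and cKO Treg (y axis), as log2 of stimulated over ex vivo on the scaled TPM + 1 scale, for the 68 V segments tested (circles alpha, squares beta, diamond delta) and 3 constant segments (triangles), with a dashed line where both are equal. All 21 beta segments lie below 0 on both axes, and Trav9-2 and Trav9-4 lie near -2 in cKO Treg and at -0.35 and -0.54 in WT Treg.

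Whether stimulation acted differently in the genotypes was tested as an interaction. Limma called 0 of 68 members, beside 1.1% of all genes called in either direction, 0.653% below and 0.451% above 0, with 8 at an unadjusted p under 0.05, beside 14.5% of all genes, limma-voom on reads called 0 and quantile normalization 1. Trbv3 came nearest, with an interaction of -0.76 (SE 0.17, adjusted p = 0.0669), followed by Trav9-4 at -1.51 (adjusted p = 0.136) and Trav9-2 at -1.69 (adjusted p = 0.24). The larger number of calls in cKO Treg is thus not shown to be a larger effect on any segment. The median interaction was -0.31 over beta and -0.19 over alpha segments, against -0.04 over all genes.

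Position within the alpha locus went with the change on stimulation. The 46 alpha segments tested were ranked from the one farthest from the joining segments, Trav1, to the nearest, Trav21-dv12. Spearman's rho of this rank with the log2 change was -0.55 in WT and -0.71 in cKO Treg. With level it was -0.34 and -0.28, and with the unique share -0.02 and -0.08. These are descriptions over segments of the same libraries. Of the 46 segments, 14 had reached the filter in all groups, 12 ex vivo only and 6 after stimulation only. Entry thus depended in part on the change itself, and rho was not taken over the 14 alone. In 4 classes set by suffix and position after the values were seen, the 26 members from Trav12-1 to Trav21-dv12 summed to 228 TPM in WT and 255 in cKO Treg before stimulation, then 135 in WT and 104 in cKO Treg after it. Of their 20 tested segments 5 fell in WT and 14 in cKO Treg, with a median change of -0.67 and -1.18, beside 19.3 and 26.5% of all genes called lower. Over all classes, 1 of 6 alpha segments that fell in WT and 6 of 18 in cKO Treg had reached the filter ex vivo only. The classes were not counted without them. The 19 members without a suffix that lie upstream of Trav12-1 summed to 105, 88.2, 84.8 and 71.1 TPM, and 1 and 3 of 14 tested fell. The 20 d copies summed to 61.4, 51.5, 55.2 and 52.3 TPM, and 0 of 7 tested fell in either genotype. The 14 n copies summed to 47.5, 41.1, 45.1 and 34.0 TPM, and 0 and 1 of 5 tested fell. The median unique share of a member was 66.3% in the class nearest to the joining segments and 34.9, 25.3 and 25.5% in the others, and its part in the pattern was not tested.

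**Figure D5:**
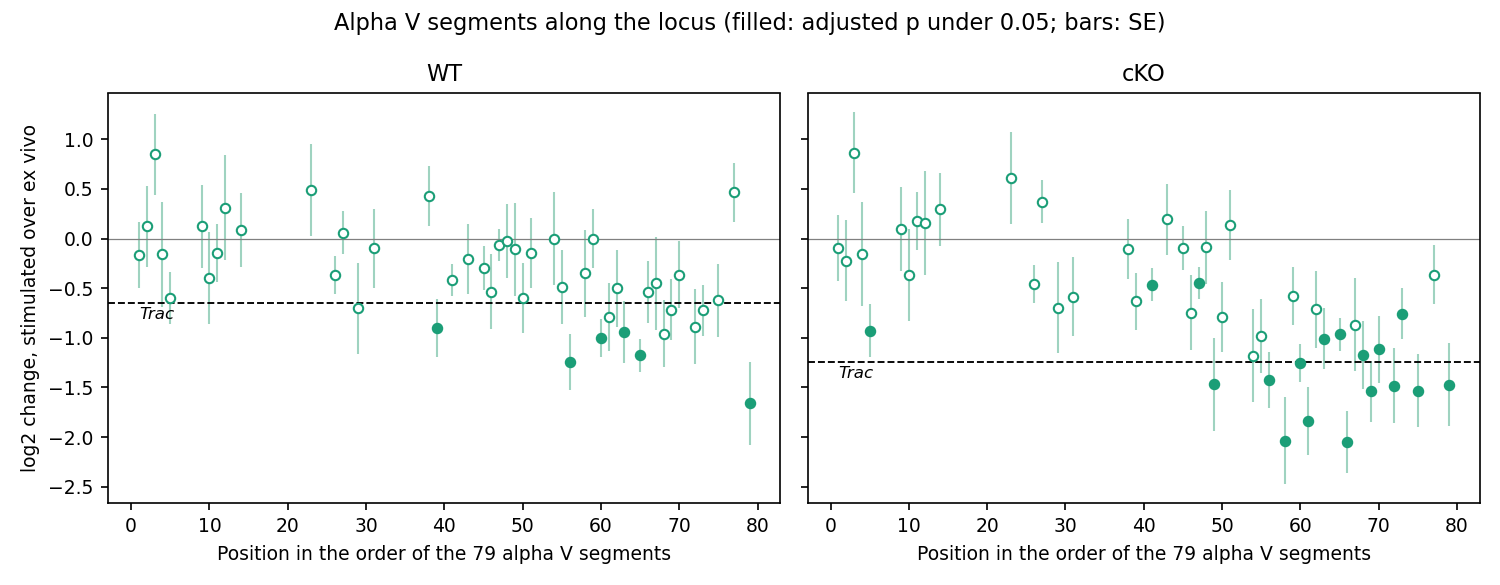
Change on stimulation of the 46 alpha V segments tested, as log2 of stimulated over ex vivo with its SE, against position in the order of all 79 alpha segments, in WT (left) and cKO Treg (right). Filled points have a limma adjusted p under 0.05, the dashed line is the constant segment Trac, and the filled points of cKO Treg lie mostly past position 50.

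Every productive chain carries a constant segment of its kind, so the constant segments gave a measure of TCR RNA that does not depend on V usage. Their unique share was not computed, so it is not known how many of their reads were left out for fitting several places. Of 15 listed names 3 were in the table, and all 3 were lower in cKO than in WT Treg after stimulation, beside 3.63% of all genes. Ex vivo, Trac, Trbc1 and Trbc2 differed by -0.02, -0.10 and -0.19, and none of these passed the limma test. After stimulation Trac differed by -0.63 (limma adjusted p = 0.0147), Trbc1 by -0.69 and Trbc2 by -0.60 between the genotypes, calls that were lost in 7, 8 and 9 of 21 alternatives (adjusted p up to 0.266, 0.264 and 0.278), among them those without cKO stimulated library 3 and without WT stimulated libraries 2 and 3. On stimulation of WT Treg, Trac, Trbc1 and Trbc2 fell by 0.65, 0.54 and 1.18, although Trac and Trbc1 turned to 0.10 and 0.21 under quantile normalization. The WT call of Trac was kept in 17 and that of Trbc1 in 12 of 21 alternatives, the latter being lost without WT ex vivo libraries 1 and 3 and without WT stimulated libraries 1 and 3. In cKO Treg they fell by 1.25, 1.12 and 1.6. Divided by the constant segments of its chain, the beta V sum was 1.42 ± 0.0667 in WT and 1.45 ± 0.0108 in cKO Treg before stimulation, then 1.41 ± 0.0656 in WT and 1.53 ± 0.152 in cKO Treg after it (SD, n = 3), and the group means of this ratio lay within the SD of the widest group. For alpha the ratio was 0.37 ± 0.0454, 0.372 ± 0.0329, 0.42 ± 0.0071 and 0.538 ± 0.12. The alpha V sum thus fell by less than Trac on stimulation, and relative to Trac it was higher, by 0.18 in WT and 0.53 in cKO Treg on the log2 scale. After stimulation it was higher in cKO than in WT Treg by 0.36, and by 0.16 without cKO stimulated library 3. Single libraries also carried much of both values on stimulation, which were 0.087 without WT ex vivo library 2 and 0.34 without cKO stimulated library 3 (omissions added after seeing the data). The alpha sum adds 79 members with a median level of 4.45 TPM. On stimulation the median of the olfactory and vomeronasal receptor genes rose from 0.742 to 0.883 TPM in WT and from 0.761 to 1.19 TPM in cKO Treg. The part of this background in the alpha ratios was not tested.

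The CD3 and zeta chains, which carry the receptor's signal, were called as follows. All 4 of 4 fell on stimulation of WT Treg, beside 19.3% of all genes called lower, the call of Cd247 being lost in 8 of 21 alternatives. In cKO Treg 3 of 4 fell, beside 26.5% of all genes, and Cd247, which encodes zeta, was at 0.00. Cd3d alone was lower in cKO than in WT Treg after stimulation, by 0.61, beside 3.63% of all genes. This call was lost in 6 of 21 alternatives (limma adjusted p up to 0.232), among them those without WT stimulated libraries 2 and 3 and without cKO stimulated libraries 1 and 3. Cd3g and Cd3e turned to 0.13 and 0.40 under quantile normalization in WT Treg, and Cd3e to 0.083 in cKO Treg. Of 10 genes of V(D)J recombination 5 were tested. On stimulation 1 fell in WT Treg, beside 19.3% of all genes, and 3 fell and 1 rose in cKO Treg, beside 26.5 and 17.3%. Prkdc, the DNA-dependent protein kinase, fell by 0.51 in WT and by 0.69 in cKO Treg on stimulation. Xrcc5 fell by 0.61, Dclre1c, which opens the hairpin ends, fell by 0.31, and Xrcc6 rose by 0.36 in cKO Treg. Rag1 (group means of 1.36 to 2.11 TPM) and Rag2 (1.07 to 2.72 TPM) were under the 95th percentile of the silent genes in all groups, except Rag2 in cKO stimulated Treg. Dntt, of the same list, was above it in all 4 groups, at 2.05 to 3.21 TPM.

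Of the semi-invariant chains, Trav1 and the joining segment Traj33 together form the chain of mucosal-associated invariant T cells. Trav1 was at 6.57, 7.67 and 6.93 TPM in WT ex vivo and 5.36, 5.30 and 4.02 TPM in cKO ex vivo Treg, without overlap, and its change of -0.46 did not pass (limma adjusted p = 0.549). Traj33 was at 32.3, 30.7 and 28.0 TPM in WT and 70.7, 50.6 and 46.6 in cKO Treg before stimulation, then 38.4, 33.9 and 37.5 in WT and 17.1, 26.1 and 20.1 in cKO Treg after it. It rested on 6 to 55 reads per library. It was higher in cKO Treg ex vivo by 0.84 (adjusted p = 0.0166) and lower after stimulation by 0.79 (adjusted p = 0.0195), with no overlap in either case. These calls were lost in 5 and 8 of 21 alternatives, with an adjusted p of up to 0.425 and 0.314. Ex vivo they included those without WT ex vivo library 3 and without cKO ex vivo library 1, and after stimulation those without each WT stimulated library and without cKO stimulated libraries 1 and 3. Traj18, the joining segment of the invariant natural killer T cell chain, was at 35.3, 46.9 and 25.4 TPM in WT and 39.9, 42.1 and 60.4 in cKO Treg before stimulation, then 37.1, 43.9 and 36.8 in WT and 21, 22.5 and 31.8 in cKO Treg after it. It had 10 to 51 reads per library. It fell in cKO Treg on stimulation by 0.89 (limma adjusted p = 0.0101), and its differences between the genotypes, 0.41 ex vivo and -0.64 after stimulation, did not pass (adjusted p = 0.4 and 0.123). Zbtb16, the factor of innate-like T cells, was at a group mean of 2.55 to 4.67 TPM.

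The libraries held 8208659 to 20247649 reads in genes, with 8208659 to 10930376 in the cKO stimulated group and 13150349 to 20247649 in the cKO ex vivo group. A single transcript, Gm10800, took 17.7 to 55.9% of TPM, with 17.7 to 39.8% in WT and 20.4 to 24.4% in cKO Treg before stimulation, then 32.6 to 44.4% in WT and 42.9 to 55.9% in cKO Treg after it. Its share was thus higher in every cKO stimulated than in every cKO ex vivo library, opposite to the V segments, and overlapped in WT Treg. Its level changed by 0.44 in WT and 1.42 in cKO Treg on the log2 scale, neither of which passed (limma adjusted p = 0.712 and 0.172), and its part in the V levels was not tested. All 8 Treg markers listed, Foxp3 and Cd4 among them, were above the silent genes in all groups. Of both CD8 T cell markers, Cd8a had group means of 1.59 to 3.07 TPM and Cd8b1 of 7.94 to 10.5 TPM, above the silent genes in all 4 groups, and the list summed to 8.72 to 14.5 TPM over all libraries. Of the B cell markers, Cd79a had group means of 1.51 to 2.28 TPM, whereas Ighm was at 300.2 TPM in WT and 364 TPM in cKO Treg before stimulation, then 96.1 and 91.0 TPM after it. Cd79b was at 6.31 TPM in WT and 10.7 TPM in cKO Treg before stimulation, then 3.67 and 7.81 TPM after it, where it was higher in cKO Treg by 0.96 (limma adjusted p = 0.0283). The B cell list summed to 285 to 350, 348 to 431, 102 to 119 and 112 to 114 TPM in that order, and its part in the V levels was not tested. Of 5 myeloid markers, 4 were above the 95th percentile of the silent genes in at least 1 group, with Csf1r at group means of 2.00 to 3.29 and Itgam at 2.48 to 3.79 TPM, and Lyz2, at 1.13 to 2.02 TPM, in none. The myeloid list summed to 7.12 to 13.3, 7.19 to 11.1, 9.79 to 12.3 and 11.6 to 17.6 TPM in that order, and its part in the V levels was not tested. Of the NK markers, Ncr1 was above this percentile in all 4 groups, at 1.90 to 3.44 TPM, and Klrb1c in 3 groups, at 1.52 to 2.76 TPM. The NK list summed to 2.77 to 6.07 TPM in WT and 2.525 to 4.93 in cKO Treg before stimulation. After it the sums were 4.47 to 5.66 in WT and 5.24 to 7.37 in cKO Treg, and their part in the V levels was not tested. In WT ex vivo library 3 Xist was at 191 TPM, against 1.86 at most in the other 11 libraries. Without this library the log2 ratio of the summed beta level was -0.00 between the genotypes ex vivo and -0.87 on stimulation of WT Treg, and that of alpha 0.09 and -0.35.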

How the data were processed

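Total RNA of 12 libraries was depleted of rRNA (QIAseq FastSelect), made into directional libraries (NEBNext Ultra II) and sequenced as 51-base pairs. The authors aligned reads with STAR 2.6.0c to mm9, counted exonic reads per gene with HTSeq 0.6.1 by strand, without reads that fit several places, and left out rRNA features. The deposited table gives 36222 genes per library as TPM, an expression signal that totals 1000000 in each library, and a deposited log2 TPM with an offset. A second deposited table of the authors' own comparisons (fold changes, p-values) was not used. Both columns together return whole reads (within 0.01) for 99.9977% of values, 10 values excepted, each of at least 1267073 reads. These reads served for depth and for the limma-voom alternative. The members and all lists were chosen with earlier results of these data known.

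TPM was rescaled between libraries by trimmed means of M values (30% of M and 5% of A trimmed, factors 0.732 to 1.21). Genes with a group mean of at least 5 TPM, as deposited and before rescaling (13318), were tested with limma 3.58.1 (trend) in R 4.3.3 on log2(TPM + 1), all 12 libraries in a single fit, with Benjamini-Hochberg adjustment over all genes tested and a threshold of 0.05. Changes on this scale understate those of low genes. Sums, shares and ratios were described without a test. Segments were named by rule: the 6 alpha, 6 beta, 3 gamma and 3 delta members of highest mean, up to 4 largest rises and falls called per comparison, and the 4 largest within-group SDs at 20 TPM or more. Other segments named were chosen after their values were seen. Sequences, coordinates and unique 51-base stretches were read from the mm9 reference with Python 3.11.15 (numpy 2.4.6, pandas 2.3.3). The limma step was tested on simulated data. Alternatives were pseudocounts of 0.5 and 5, filters of 1 TPM and none, TPM as deposited, median-of-ratios scaling, quantile normalization, limma-voom, a replicate block and each library left out. Between libraries of a group, the chi-square per degree of freedom of the reads was 5.48 at least, so no 2 libraries agreed within sampling noise. Reads carried no molecular identifiers, and read numbers bear on counting error only.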

Additional observations from a re-analysis of the deposited data

Results flagged for a closer look

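The joining segment Traj33 was singled out because stimulation moved it differently in the genotypes by the test of the difference itself. Its interaction was -1.63 on the log2 scale (SE 0.24, limma adjusted p = 0.0132), on 6 to 55 reads per library. On stimulation its level changed by 0.26 in WT Treg (adjusted p = 0.26) and by -1.36 in cKO Treg (adjusted p = 0.000118), and each cKO stimulated library, at 17.1, 26.1 and 20.1 TPM, was below every cKO ex vivo library, at 70.7, 50.6 and 46.6 TPM. The adjusted p was 0.368 with a filter of 1 TPM, 0.312 with none and 0.135 by limma-voom. The cause was not tested.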

How the results depend on the processing

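The 71 results of V segments called by limma kept their direction in all 1490 runs of the alternatives, 1305 of them with the call kept and 185 with it lost, and 39 results kept the call throughout. Members called in the genotype comparison ex vivo were 0 with a filter of 1 TPM, without a filter and on TPM as deposited, 2 by limma-voom, and 1 to 2 with each library left out. After stimulation they were 1, 1, 5 and 2 under the same settings and 1 to 10 with a library left out. For stimulation of WT Treg they were 15, 14 and 12 with 1 TPM, no filter and TPM as deposited and 19 to 26 with a library left out, for stimulation of cKO Treg 30 to 42 with a library left out and 47 on TPM as deposited, and for the interaction 1 under quantile normalization and 0 with each library left out. On TPM as deposited the median change of all genes was 0.21, -0.30, 0.18, -0.31 and -0.52 in the 5 comparisons, against -0.01, -0.03, 0.00, -0.01 and -0.04, and this scale gave sums of 0.20, -0.59, -0.27 and -1.06 for alpha and 0.077, -0.81, -0.82 and -1.71 for beta. As a ratio to the constant segments, alpha was 0.36, 0.18 and 0.53 and beta 0.11, -0.005 and 0.073, in the genotype comparison after stimulation and on stimulation of WT and of cKO Treg. On reads relative to the library total, alpha was -0.42 and beta -0.65 after stimulation, and alpha -0.31 on stimulation of WT Treg. With each library left out, the sums ran, in the order of comparisons, from -0.11 to 0.09, -0.35 to -0.25, -0.56 to -0.35 and -0.80 to -0.68 for alpha and from -0.25 to -0.00, -0.60 to -0.48, -1.11 to -0.87 and -1.47 to -1.35 for beta. The median SD within groups was 0.27 with a pseudocount of 5 and 0.395 to 0.445 with a library left out. Under quantile normalization Trac, Trbc1, Cd3g and Cd3e turned to 0.10, 0.21, 0.13 and 0.40 on stimulation of WT Treg, and Cd3e to 0.083 in cKO Treg. Deviations of libraries with the same replicate number had correlations of -0.21 to 0.26, so the numbers were not taken to pair libraries. With the number as a replicate block the counts were 1, 6, 25, 40 and 0. The causes were not tested. Alpha segments with few unique stretches, and gamma and delta segments at 15 to 54 and 3 to 68 reads per library, were limited by the reads counted.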
